A study of Homo sapiens with 6 samples.

Results

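The members described here are the 1871 loci that the authors' gene count table types as new genes, out of 16362 rows in all; the rest are 14408 annotated genes, 52 known lncRNA genes and 31 lncRNA genes not typed as known. They were taken by that type alone, and no threshold on counts was added here. All 1871 had at least 1 count over the 6 libraries, and how new loci were built is not given. Reads of these same libraries may therefore have decided which loci exist, and whether that favours 1 group was not tested. Each carries an identifier of the authors' own, from ONT.1 to ONT.10671, and the same identifier stands in place of a gene symbol for all 1871. The counts come from MDA-MB-231 cells, a human triple-negative breast cancer line, either left without an agent (3 control libraries) or treated with CTI-2 for 24 h (3 libraries). CTI-2 is known here by its code name only. No source used here gives its dose or says whether the controls received a vehicle.

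Long-read cDNA sequencing can read the copy of a whole RNA molecule as a single read, in place of many short fragments. Reads that align to the genome outside the annotated gene models are grouped into new loci, and such loci are known from many tissues as a mixture: noncoding RNAs, antisense and intronic transcripts, transcripts started in repeats, extensions of a neighbouring gene, and pieces of RNA primed inside an A-rich stretch. Most new loci found this way are low in counts. The files give a length for each locus but no position, strand, exon structure or sequence, so neither the place of a locus nor the kind of transcript it holds was analysed here.

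Library totals were 2208261 to 3929532 counts, and 13908 to 14716 rows had a count in a library. At these depths 3 counts, the upper limit that a count of 0 allows, correspond to 0.763 to 1.36 CPM (counts scaled to a library total of 1000000). The libraries are nowhere said to come from separate cultures, so p-values measure the spread between these libraries, which may be technical. Of the markers commonly given for the line, CD44 (131 to 188 CPM), PLAUR (129 to 229 CPM), EGFR (15.8 to 26.4 CPM) and ZEB1 (14.8 to 19.9 CPM) were present, while AXL was at 2.98 to 7.41 CPM and VIM, commonly described as abundant in it, at 14.5 to 18.9 CPM. ERBB2, the HER2 gene that the line does not amplify, was at 4.98 to 11.1 CPM. ESR1 and CDH1, genes of the estrogen receptor and E-cadherin that the line is known to lack, had at most 2 and 1 counts in a library. EPCAM, an epithelial gene, was at 6.98 to 10.6 CPM, COL1A1, a fibroblast collagen gene, at 52.2 to 87.4 CPM, and PECAM1, an endothelial gene, at 1.93 to 4.58 CPM.

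New loci were short. Their deposited length had a median of 579 bases (quartiles 330.5 and 1148.5), against a median of 30156 bases for annotated genes. In all, 173 loci were under 200 bases, the shortest 97 bases, and 1339 (71.6%) were under 1000 bases, a size that 68 (0.472%) of the annotated genes had. A tail of 129 loci exceeded 10000 bases, up to 323415 bases. Whether this length is a genomic span or a spliced length is not stated, and levels per kilobase below use it as deposited.

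**Figure D1:**
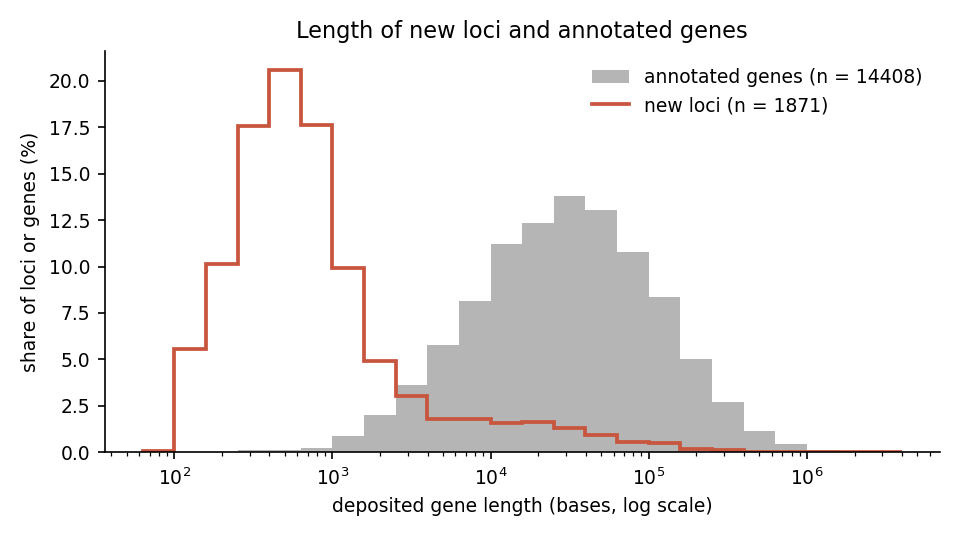
Distribution of the deposited length (x axis, bases, log scale) as a share of each class (y axis, %), for 1871 new loci (red line) and 14408 annotated genes (grey). The new loci peak near their median of 579 bases and run out into a thin tail beyond 10000 bases, where most annotated genes lie.

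Most loci carried few reads. The count summed over the 6 libraries had a median of 37 per locus (quartiles 20 and 69), against 151 per annotated gene, and 178 loci had fewer than 10 counts in all. In a single library the median locus had 7, 8 and 7 counts across controls 1 to 3 and 6, 5 and 4 counts across CTI-2 libraries 1 to 3. Even so, 1446 loci (77.3%) had a count in each of the 6 libraries, close to the 76.9% of annotated genes, and 36 were seen in 1 library only. Length and summed count were weakly related across loci (Spearman rho 0.18 over 1871 loci, a description, since all loci share the same libraries).

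A handful of loci held most of the reads. ONT.10335 alone took 26.4% of all counts at new loci and ONT.10340 took 11.9%; the 10 largest held 61.3% and the 100 largest 79.0%. In all, 29 loci reached 1000 counts. ONT.10335 has a length of 405 bases and ONT.10340 of 1739 bases, so per kilobase of length their mean levels were 15989 and 1703 CPM. A statement on the summed counts of new loci is therefore largely one about a few of them, and sums are given here with and without them.

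New loci as a whole took 2.52%, 2.39% and 3.05% of counts across controls 1 to 3 and 2.41%, 2.35% and 2.05% across CTI-2 libraries 1 to 3. Control 3 was highest and CTI-2 library 3 lowest, but control 2 lay below CTI-2 library 1, so the groups overlapped. Exact 95% binomial (Clopper-Pearson) intervals, which cover counting error only, were narrow (2.37 to 2.40% in control 2 and 2.39 to 2.43% in CTI-2 library 1). The means were 2.65% ± 0.354 in controls and 2.27% ± 0.193 under CTI-2 (n = 3 libraries each, SD), a difference of -0.38 percentage points that did not exceed the spread between libraries (two-sided exact permutation p = 0.2, where 3 against 3 cannot give less than 0.1). Without control 3 the difference was -0.18 points. The share of the annotated mitochondrially encoded genes was 4.70%, 4.13% and 6.12% across controls 1 to 3 and 3.27%, 3.24% and 2.97% across CTI-2 libraries 1 to 3. Its part in the share of new loci was not tested beyond the total: with those genes left out of the total, the difference in new loci was -0.45 points (exact permutation p = 0.2). The 52 known lncRNA genes held 0.0619% ± 0.00125 and 0.065% ± 0.000654 of counts and the 31 others 0.0212% ± 0.00133 and 0.0194% ± 0.00125 (control and CTI-2, n = 3 libraries each, SD).

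**Figure D2:**
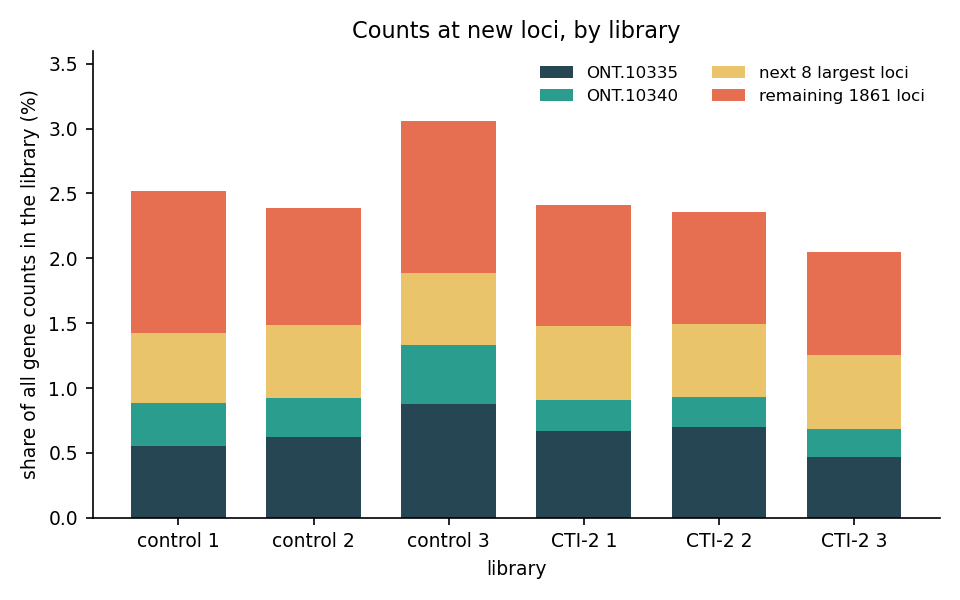
Share of all gene counts in each library (y axis, %) held by new loci, stacked from ONT.10335, ONT.10340, the next 8 largest loci and the remaining 1861 loci. Bars reach 2.05% in CTI-2 library 3 and 3.05% in control 3; the ONT.10340 segment is lower in every CTI-2 library than in any control, and the segment of the next 8 largest stays between 0.539% and 0.577%.

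The parts of this sum differed. ONT.10335 held 0.55%, 0.62% and 0.876% of counts in controls and 0.668%, 0.699% and 0.472% under CTI-2, so its lowest library was a CTI-2 library and its highest a control, with the others interleaved (exact permutation p = 0.7). Without ONT.10335 new loci held 1.97%, 1.77% and 2.18% of counts in controls and 1.74%, 1.66% and 1.58% under CTI-2, and the groups did not overlap (exact permutation p = 0.1, the smallest possible). ONT.10340 held 0.338%, 0.3005% and 0.455% in controls and 0.243%, 0.231% and 0.209% under CTI-2, without overlap. The next 8 largest loci together held 0.554% ± 0.0137 and 0.57% ± 0.00678. The remaining 1861 loci held 1.09%, 0.9% and 1.17% in controls and 0.934%, 0.858% and 0.794% under CTI-2; control 2 again lay within the range of the CTI-2 libraries (exact permutation p = 0.2).

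By length, the 624 loci of 97 to 398 bases held 0.352% ± 0.0293 of counts in controls and 0.301% ± 0.0223 under CTI-2, and the 623 loci of 871 bases or more 0.906% ± 0.141 and 0.683% ± 0.036 (n = 3 libraries each, SD). In both of these classes the groups did not overlap (exact permutation p = 0.1, the smallest possible, and 0.15 adjusted over the 3 length classes). With the loci cut into 2 length classes in place of 3, the groups overlapped in the shorter class (-0.105 points, exact permutation p = 0.6) and not in the longer one (-0.28 points, p = 0.1). ONT.10340 lies in the longest class. Without it and ONT.10335 the difference of that class went from -0.22 to -0.0855 points, and the groups overlapped (exact permutation p = 0.2). The 624 loci of 399 to 870 bases, ONT.10335 among them, held 1.395% ± 0.202 and 1.29% ± 0.139 (exact permutation p = 0.6).

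Fewer new loci were seen under CTI-2 at equal depth, in a single random draw. With every library thinned to 2208261 counts, 1722, 1691 and 1737 new loci had a count across controls 1 to 3 and 1690, 1655 and 1599 across CTI-2 libraries 1 to 3. The groups did not overlap, although control 2 and CTI-2 library 1 differed by 1 locus (difference of means -68.7 loci, or -4.0% of the control mean; two-sided exact permutation p = 0.1, the smallest possible). Another draw could reverse that gap and was not made. The same measure for annotated genes was 12422 ± 124 in controls and 12235 ± 36.1 under CTI-2, a change of -1.51%, also without overlap. Asking for 3 counts in place of 1 gave 1382 ± 82.6 and 1208 ± 71.0 new loci (-12.6%) and 10858 ± 135 and 10595 ± 69.0 annotated genes (-2.43%; exact permutation p = 0.1 for each). New loci and annotated genes were not matched for level in this measure (median of the mean level 2.18 and 8.84 CPM). Unthinned, the number of new loci with a count was 1743, 1782 and 1748 in controls and 1748, 1726 and 1599 under CTI-2, where library 3 also has the smallest total.

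Over all 1871 loci, tested or not, 1376 (73.5%) had a higher mean CPM in controls and 495 in CTI-2 libraries, and 58.4% of annotated genes had the higher mean in controls. In either direction, the groups did not overlap at 20.1% of new loci and at 21.6% of annotated genes, so this share was no higher in new loci. Values of the 3 controls all lay above those of the 3 CTI-2 libraries at 334 of the 1871 new loci, and all below at 42. For the 14408 annotated genes the numbers were 1733 and 1372. The set of new loci may itself depend on reads of these libraries.

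The comparison asks which loci differ under CTI-2. It was made for rows with at least 10 counts in at least 3 libraries. This kept 650 new loci (34.7%) among 10053 rows, and left out 1221. The 650 had 46 to 111461 counts in all and the 1221 had 1 to 64. Of the 650, 41 met the minimum only in the 3 controls and none only in the 3 CTI-2 libraries, so those 41 could enter the comparison only by being higher in controls. They account for 15 of the 50 falls given next and for none of the rises. Among 9349 annotated genes tested, 57 met the minimum only in the 3 controls and 3 only in the 3 CTI-2 libraries. The minimum thus let in a larger part of the new loci than of the annotated genes through the controls alone. Of the 650 new loci, 5 rose and 50 fell with CTI-2 (edgeR quasi-likelihood test, threshold 0.05), with p-values adjusted by Benjamini-Hochberg over all 10053 rows; 3.55% of all rows tested rose and 4.53% fell. The shares among new loci were 0.769% and 7.69%. Their groups did not overlap at 175 (26.9%) of the 650, close to the 28.6% of all rows. By direction, 156 (24.0%) of the 650 were higher in every control and 19 (2.92%) higher in every CTI-2 library. Over all rows tested these were 1574 (15.7%) and 1297 (12.9%). The median log2 fold change was -0.27 over the 650 new loci and -0.01 over all rows. The members passed a minimum that some met through the controls alone; with a minimum on the mean over all 6 libraries, 5 of 567 rose and 45 fell. Whether new loci differ from other rows in direction was not tested as such.

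Call numbers depended on single libraries. Without control 2 there were 10 higher and 76 lower new loci, while 31 and 22 were lower without control 1 and control 3, and 23 and 27 without the second and the third CTI-2 library. DESeq2 gave an adjusted p to 186 of the 650, among them 22 of the 50 that fell, and called 3 higher and 15 lower. Of the 50 loci that fell, 12 (ONT.10541, ONT.8236 and ONT.933 among them, which met the minimum only in controls) passed whichever library was left out, and so did 2 of the 5 that rose.

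**Figure D3:**
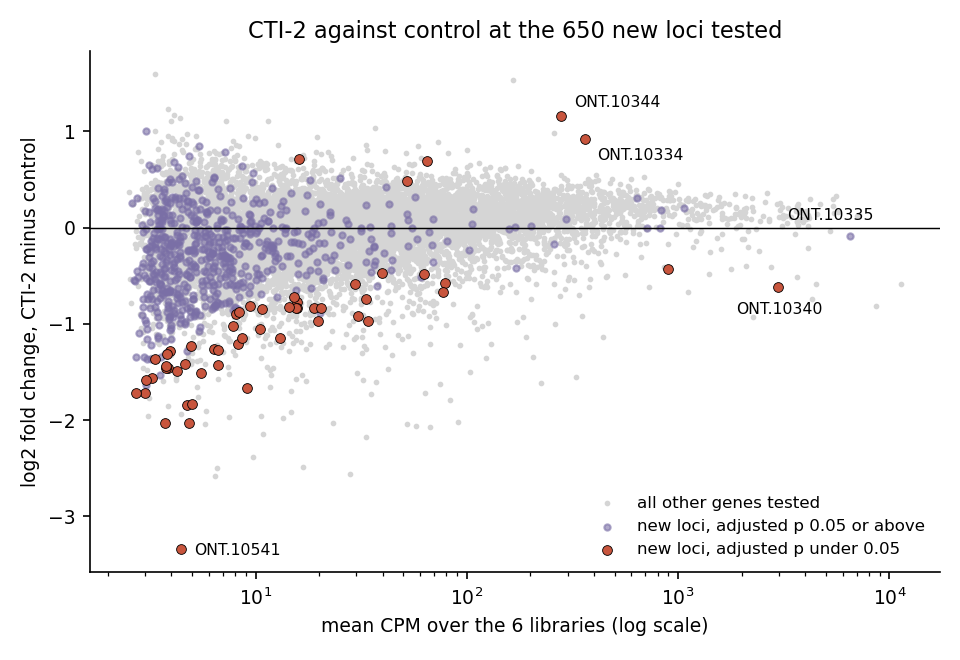
Log2 fold change of CTI-2 minus control (y axis) against mean CPM over the 6 libraries (x axis, log scale) for 650 new loci (purple, or red where the adjusted p was under 0.05) and all other rows tested (grey). Most red points lie below 0 and to the left, at a few to 20 CPM; ONT.10344 and ONT.10334 lie above 0 at 280 and 362 CPM, and ONT.10541 lies lowest.

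The 5 loci that rose had means of 16.0 to 362 CPM. At none did the groups overlap, which a call with 3 against 3 libraries largely selects for. ONT.10344 (543 bases) rose most. It had 134, 158 and 245 CPM across controls 1 to 3 and 401, 393 and 352 CPM across CTI-2 libraries 1 to 3, so every CTI-2 value was above the highest control (edgeR log2 fold change 1.16, SE 0.16, adjusted p = 0.000639). Its call was lost without control 2 (edgeR adjusted p = 0.0944) and held without any other library. ONT.10334 (614 bases) rose from 222, 243 and 307 CPM to 478, 501 and 422 CPM, a 1.89-fold difference (log2 0.92, SE 0.12, edgeR adjusted p = 1.28e-06). This call passed in each of 18 alternative settings.

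ONT.9132 (7951 bases) had 55.9, 50.9 and 44.3 CPM in controls and 82.4, 75.8 and 78.3 CPM under CTI-2 (log2 fold change 0.70, SE 0.13, edgeR adjusted p = 0.00054), and also passed in all 18 settings. ONT.9396, at 38833 bases the longest of the 5, went from 12.7, 11.2 and 13.2 CPM to 17.1, 19.5 and 22.2 CPM (0.72, edgeR adjusted p = 0.0241). ONT.9902 (443 bases) went from 47.8, 47.6 and 37.5 CPM to 65.0, 54.3 and 61.1 CPM (0.48, edgeR adjusted p = 0.0256). Both of these last calls were lost in DESeq2 (adjusted p = 0.0982 and 0.0881) and without any of 4 libraries in turn, among them control 1, control 3 and CTI-2 library 3 for each.

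The loci that fell were mostly low in counts. Of the 50, 29 had a mean under 10 CPM, as had 450 of the 595 new loci not called. Calls that fell more than 2-fold were 28 of the 650 new loci tested and 151 of all 10053 rows, with levels not matched. The groups did not overlap at 48 of the 50, which a call with 3 against 3 libraries largely selects for. The highest CPM was in control 3 for 29 of the 50, in control 1 for 16 and in control 2 for 5, and the lowest in CTI-2 library 3 for 23. Their lengths ran from 156 to 59123 bases. Of the 8 largest falls, 6 (ONT.10541, ONT.6102, ONT.8236, ONT.933, ONT.4472 and ONT.6808) met the minimum of 10 counts only in the 3 controls, so they were in the comparison because of the group where they are high, and their sizes and calls are given as a description. ONT.9024 and ONT.92 met it in a CTI-2 library too.

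ONT.10541 and ONT.6102 met the minimum only in the 3 controls, so the rank and p-values given for them are a description only. ONT.10541 (59123 bases) had the most negative log2 fold change of all 10053 rows tested, at -3.34 (SE 0.60, edgeR adjusted p = 0.00102). It had 40, 18 and 11 counts across controls 1 to 3 and 2, 3 and 1 counts across CTI-2 libraries 1 to 3. Control 1 stood apart at 15.4 CPM, against 4.58 and 4.68 CPM in the other controls, and without it the log2 fold change was -2.60 (edgeR adjusted p = 0.00696). ONT.6102 (549 bases) fell by 2.03 on the log2 scale, from 10, 15 and 25 counts to 4, 3 and 4; control 3 was the high library, and without it the value was -1.49 (edgeR adjusted p = 0.11). ONT.9024 (677 bases) had 22, 21 and 24 counts in controls and 10, 4 and 1 under CTI-2, a log2 fold change of -2.03 (SE 0.43, edgeR adjusted p = 0.00221).

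Among the next 5 in size, ONT.8236 (2760 bases) went from 20, 19 and 24 counts to 9, 4 and 3, with a log2 fold change of -1.85. ONT.933 (497 bases) went from 18, 37 and 17 counts to 6, 8 and 4, with -1.83. Scaled to library totals its controls lay at 6.93, 9.42 and 7.23 CPM, so control 2 was the highest on that scale too. ONT.92 (371 bases) had 34, 30 and 52 counts in controls and 18, 10 and 6 under CTI-2 (log2 fold change -1.67). ONT.4472 (256 bases) had 17, 11 and 12 counts against 7, 4 and 0, and ONT.6808 (192 bases) had 10, 15 and 12 against 5, 2 and 3 (log2 fold changes of -1.72 for both).

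ONT.9024 and ONT.92 passed whichever library was left out, and so did ONT.10541, ONT.8236 and ONT.933. In each of these runs the loci compared were kept as chosen with all 6 libraries. For ONT.10541, ONT.8236 and ONT.933 this is therefore no sign of stability. ONT.9024 reached the minimum in CTI-2 library 1 alone of the CTI-2 libraries, with 10 counts, so without that library it met it only in controls. With the minimum set on the mean over all 6 libraries, ONT.4472 and ONT.6808 were not tested. The call of ONT.6102 was lost without control 3, that of ONT.4472 without any of 4 libraries in turn and in 3 other settings (edgeR adjusted p up to 0.176) and that of ONT.6808 without any of 3 (up to 0.146). DESeq2 gave none of these 8 loci an adjusted p.

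**Figure D4:**
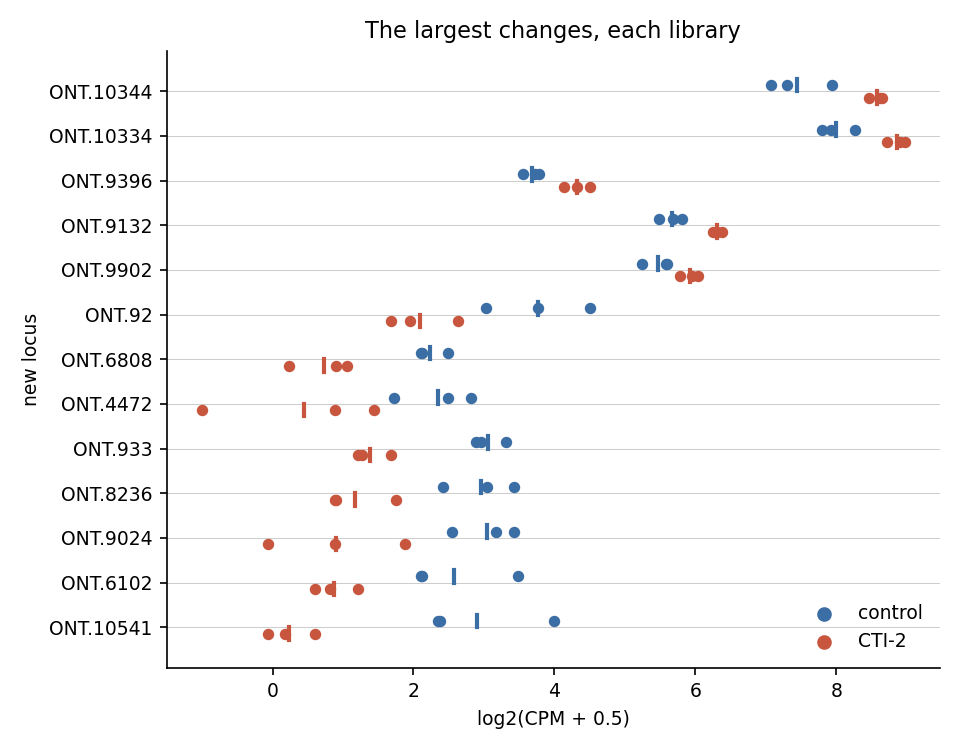
Level of the 5 loci that rose and the 8 that fell most, as log2(CPM + 0.5) (x axis), with 1 point per library (blue, 3 controls; red, 3 CTI-2 libraries) and a bar at each group's mean. The 13 loci were chosen by a rule that asks for groups that do not overlap, so the gap in each row follows from that choice. The 8 that fell lie at low levels, where single reads move a point, and 1 point of ONT.4472 is at 0 counts.

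Some falls were called in every setting run. Besides ONT.10340, 5 loci that fell passed in all 18 alternative settings, and were chosen for description after their values were seen. ONT.4395 (921 bases) had 96.7, 84.5 and 108 CPM in controls and 57.1, 63.0 and 52.5 CPM under CTI-2 (log2 fold change -0.67, SE 0.12, edgeR adjusted p = 0.000506). No other locus that fell had a smaller adjusted p. ONT.3943 (6011 bases) had 106, 73.8 and 111 CPM in controls and 71.7, 59.0 and 52.5 CPM under CTI-2, so control 2 lay close above the highest CTI-2 value (-0.58, edgeR adjusted p = 0.00522).

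ONT.6768 (2515 bases) stood at 54.3, 28.5 and 55.8 CPM in controls and 27.0, 17.5 and 21.3 CPM under CTI-2 (log2 fold change -0.97). For ONT.4408 (1224 bases) the values were 27.7, 21.4 and 30.6 CPM and 14.6, 13.5 and 14.04 CPM (-0.84). ONT.7187 (804 bases) stood at 23.9, 10.7 and 20.9 CPM in controls and at 7.61, 7.08 and 8.60 CPM under CTI-2 (-1.15). Control 2 was the lowest of the controls at all 5 loci and still lay above every CTI-2 library.

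The 6 new loci with the highest mean CPM were ONT.10335, ONT.10340, ONT.1906, ONT.10339, ONT.1748 and ONT.9702. ONT.10335 had 5498, 6199 and 8756 CPM in controls and 6682, 6994 and 4723 CPM under CTI-2, with no called difference (log2 fold change -0.09, SE 0.16, edgeR adjusted p = 0.779). ONT.10340 fell from 3382, 3005 and 4553 CPM to 2431, 2305 and 2089 CPM (-0.61, SE 0.13, edgeR adjusted p = 0.00213) and passed in all 18 settings. ONT.10339 (728 bases) fell from 952, 935 and 1241 CPM to 746, 731 and 741 CPM (-0.43, edgeR adjusted p = 0.0151), a call that was lost without any 1 of the CTI-2 libraries (up to 0.102).

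The other 3 of the 6 lay elsewhere in the numbering and did not pass. ONT.1906 (408 bases) had 990, 1108 and 929 CPM in controls and 1083, 1147 and 1138 CPM under CTI-2 (log2 fold change 0.20, edgeR adjusted p = 0.294). ONT.1748 (388 bases) had 766, 864 and 751 CPM and then 855, 844 and 910 CPM (0.18, edgeR adjusted p = 0.349). In both, control 2 lay within the range of the CTI-2 libraries, and without control 2 both were called higher (0.33 and 0.30, edgeR adjusted p = 0.00274 and 0.006). ONT.9702 (1960 bases) stood at 836 ± 67.5 CPM in controls and 799 ± 70.2 CPM under CTI-2 (n = 3 libraries each, SD; log2 fold change -0.004, edgeR adjusted p = 0.988).

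Several of the loci with most reads carry neighbouring identifiers. The 10 new loci numbered from ONT.10334 to ONT.10344, a set chosen after its values were seen, held 46.2% of all counts at new loci, and 4 of the 10 largest and both of the largest rises are among them. No source used here says what the numbers stand for. In the 13 known lncRNA rows that pair such a number with 1 Ensembl gene, the numbers followed chromosome name in text order and start in GENCODE 29 in all 13 rows; whether they do so for new loci was not tested, and no position was taken from them. If they do, the run would lie between ONT.9543 on chromosome 7 and ONT.10661 on X. Text order places other whole chromosomes, part of X and the mitochondrial genome in that stretch. The numbers do not say which of these would hold the run. Whether any of these loci is mitochondrial was not tested, which limits what a share of new loci stands for.

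These 10 loci did not move together. Besides the rises of ONT.10334 and ONT.10344 and the falls of ONT.10339 and ONT.10340, none of them passed. ONT.10337 (502 bases) stood at 41.6, 36.6 and 62.6 CPM in controls and 36.5, 30.0 and 19.0 CPM under CTI-2 (log2 fold change -0.61, edgeR adjusted p = 0.0797), and ONT.10338 (306 bases) at 168, 168 and 262 CPM and 137, 162 and 125 CPM (-0.42, edgeR adjusted p = 0.0583). With the replicate number as a block both passed. ONT.10343 (423 bases) was at 26.3 ± 8.74 and 19.4 ± 0.342 CPM (-0.34), ONT.10336 (277 bases) at 69.2 ± 25.3 and 63.7 ± 6.90 CPM (-0.05), and ONT.10341 (1003 bases) at 107 ± 29.5 and 104 ± 21.5 CPM (0.04; n = 3 libraries each, SD for each). The last 2 changed sign between settings. Control 3 had the highest CPM of the controls at all 10 loci.

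As a sum, the 10 held 1.05%, 1.09% and 1.57% of counts in controls and 1.11%, 1.13% and 0.863% under CTI-2 (exact permutation p = 0.6). Control 3 was highest and CTI-2 library 3 lowest in this sum, as they were in the share of the annotated mitochondrially encoded genes (6.12% and 2.97%), while controls 1 and 2 lay below CTI-2 libraries 1 and 2 in the run and above them in the mitochondrial genes. The part of one in the other was not tested. The 1861 new loci outside the run held 1.47%, 1.29% and 1.485% in controls and 1.30%, 1.22% and 1.19% under CTI-2, a difference of -0.18 points that overlapped at control 2 and CTI-2 library 1 (exact permutation p = 0.2). The median log2 fold change of the tested loci was -0.27 with or without the run.

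Within classes of mean CPM new loci had lower median values than annotated genes, with levels not matched further inside a class. Among loci of 4 to 8 CPM the median log2 fold change was -0.30 over 257 new loci and -0.11 over 1505 annotated genes, with 12 and 41 lower calls (4.67% and 2.72%). At 8 to 20 CPM the medians were -0.18 over 136 loci and -0.09 over 2325 genes, with 11.8% and 4.73% lower. At 20 to 100 CPM they were -0.18 over 63 loci and 0.02 over 3401 genes, with 14.3% and 5.03% lower. Above 100 CPM 19 new loci had a median of 0.00 and 1703 annotated genes of 0.15, with 10.5% and 4.35% lower. In that class the median level was 294 CPM for new loci and 195 CPM for annotated genes. Higher calls were 2 of 63 loci and 132 of 3401 genes at 20 to 100 CPM. Above 100 CPM they were 2 of 19 and 202 of 1703. Up to 4 CPM, where the minimum of 10 counts in 3 libraries selects most, the values were -0.42 over 175 loci and -0.16 over 415 genes. Loci and genes that met the minimum only in the controls are kept in these classes. The difference between new loci and annotated genes was not tested, and annotated genes in every class were far longer (median 18934 to 43168 bases, against 542 to 1103 bases for new loci).

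**Figure D5:**
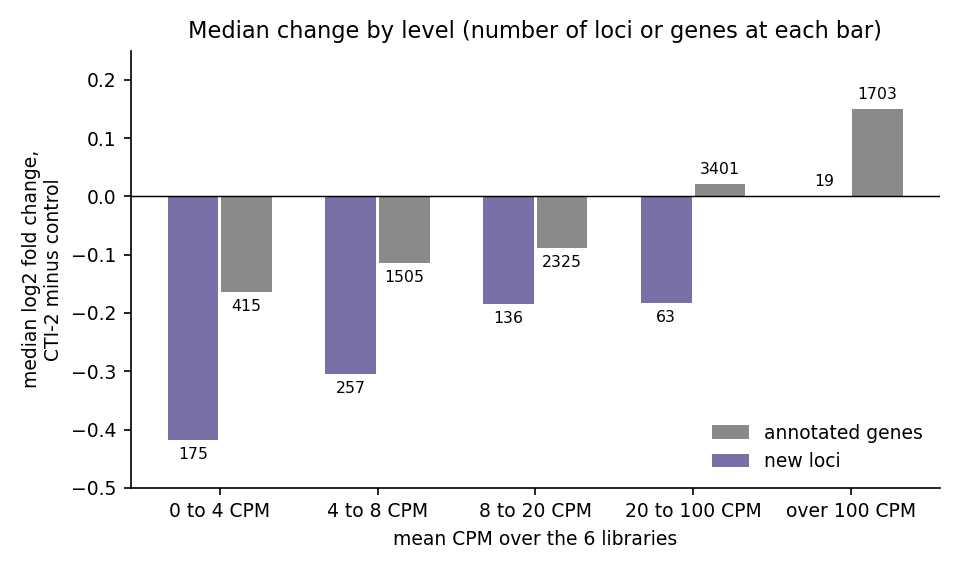
Median log2 fold change of CTI-2 minus control (y axis) in 5 classes of mean CPM (x axis) for new loci (purple) and annotated genes (grey), with the number of loci or genes at each bar. The purple bar is lower in each class, from -0.42 against -0.16 up to 4 CPM to 0.00 against 0.15 above 100 CPM.

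The precision of a new locus followed its level. The median SE of the log2 fold change was 0.34 over the 650 new loci and 0.19 over all rows, while at 4 to 8 CPM it was 0.35 for new loci and 0.33 for annotated genes. Across the 650 loci, log2(CPM + 0.5) correlated at r = 0.923 to 0.937 between controls, at r = 0.913 to 0.938 between CTI-2 libraries and at r = 0.871 to 0.927 between groups, correlations across loci within these libraries. These ranges overlapped. Control 2 correlated at 0.937 and 0.923 with controls 1 and 3, and at 0.921, 0.927 and 0.909 with CTI-2 libraries 1 to 3. By length, 7 of 156 tested loci of the shortest class fell and none rose (median -0.40), 23 of 211 in the middle class fell and 3 rose (-0.29), and 20 of 283 in the longest class fell and 2 rose (-0.21).

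At the extremes of length no tested locus passed. ONT.3624, with 285883 bases the longest tested, had 20.8, 14.3 and 25.1 CPM in controls and 18.7, 13.5 and 14.9 CPM under CTI-2 (log2 fold change -0.25, edgeR adjusted p = 0.508). ONT.8783 (249263 bases) had 14, 12 and 16 counts against 11, 12 and 8 (-0.32). The shortest tested, ONT.9962 (109 bases), had 11, 34 and 18 counts in controls and 11, 14 and 6 under CTI-2 (-0.87, edgeR adjusted p = 0.121), and ONT.6706 (113 bases) had 11, 14 and 9 against 7, 10 and 4 (-0.56). The groups of ONT.6706 did not overlap in CPM, and those of ONT.9962 did.

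No locus of the 1871 was seen in all 3 CTI-2 libraries and in no control. The reverse, all 3 controls and no CTI-2 library, held for 5. Among 14408 annotated genes the numbers were 9 and 39, so the control-only share was close to that of new loci. The largest of the 5 new loci were ONT.1862 (258 bases), with 9, 3 and 3 counts in controls, and ONT.1332 (2421 bases), with 3, 2 and 9. Over the 3 CTI-2 libraries together a count of 0 allows up to 0.36 CPM (3 counts over the group), so their pooled control levels of 1.69 and 1.58 CPM were at least 4.69-fold and 4.38-fold higher. A single library carried each limit: without control 1 that of ONT.1862 was 2.65-fold (0.956 CPM), and without control 3 that of ONT.1332 was 2.13-fold (0.766 CPM). Both were chosen for this pattern and lie below the minimum for the comparison, so no test is given.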

How the data were processed

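Per the labels' protocols, libraries were made by Nanopore cDNA-PCR, and the submitters' processing notes name the aligner minimap2. No source used here gives the genome build, annotation, counter, filter, use of strand or the way new loci were built. The authors deposited whole-number counts per gene, a length per gene, and CPM that equalled count / total × 1000000 to within 1e-09.

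Libraries were grouped by agent. Rows of every type with at least 10 counts in at least 3 libraries were normalized by TMM and entered the quasi-likelihood test of edgeR 4.0.16 (R 4.3.3), with Benjamini-Hochberg adjustment over all rows and a threshold of 0.05; SEs come from the fold change and the F statistic. Shares and numbers detected were compared by two-sided exact permutation tests. Loci named are the 8 largest rises and 8 largest falls among non-overlapping calls with a mean of 10 counts in the higher group (5 rises qualified), the 6 highest in mean CPM, the 2 longest and 2 shortest tested, and up to 2 per direction seen in 1 group only; those named beyond this rule are said to be. Members, lists and rules were chosen with earlier results of these data known. No gene name table holds any of the 1871 identifiers.

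Alternatives were other filters and scalings, DESeq2 1.42.0, limma 3.58.1 (voom, and log2(CPM + 1) or log2(CPM + 0.5)), a replicate block, thinning and leaving out each library. Sums without the 2 largest loci or without ONT.10334 to ONT.10344, and control-only limits without each control, were chosen after seeing the data. On counts simulated for CTI-2 minus control (10037 genes), 52.2% of genes changed 1.5-fold, 92.1% of those changed 2-fold and 100% of those changed 4-fold were recovered, and 6 of 163 calls were false. The changed genes were drawn from rows of every type, with the same spread for each. Median levels were 21.4 CPM over all rows tested and 5.83 CPM over the new loci tested. These rates therefore do not describe new loci, for which recovery was not measured. Libraries of the same group differed by more than sampling noise. Over rows of every type, chi-square per degree of freedom was 3.53 to 6.03 between controls and 1.68 to 2.26 between CTI-2 libraries. At new loci it was 2.19 to 2.72 and 1.31 to 2.06.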

Additional observations from a re-analysis of the deposited data

How the results depend on the processing

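The median log2 fold change of the tested loci stayed negative in every alternative run (-0.37 to -0.22). The number of new loci called higher, 5, was 3 with library totals, with DESeq2, with limma on log2(CPM + 1) or log2(CPM + 0.5) and at an adjusted p of 0.01, and 3 to 10 when leaving out 1 library. The number called lower, 50, was 33 with a minimum of 20 counts, 15 with DESeq2, 18 at an adjusted p of 0.01 and 22 to 76 when leaving out 1 library; the cause was not tested beyond the fewer loci tested or given an adjusted p. Equal replicate numbers did not deviate together (r = -0.05, 0.01 and -0.12 for numbers 1 to 3); with the replicate block 5 were higher and 65 lower, including all 50. With no low-count filter 75 were lower, 48 of them shared.

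The difference in the share of counts kept its sign (-0.51 to -0.18 points without 1 library). That in loci detected was -174 at 3 counts, and -89.7 to -44.2 without 1 library. For length classes it was -0.105 in the shorter of 2 classes, where the groups overlapped (exact permutation p = 0.6), -0.0855 in the longest class without the 2 largest loci, and in the middle class -0.175 to 0.00822 without 1 library, the last without control 3. Loci near 0 changed sign when 1 library was left out: ONT.9702 (-0.0842 to 0.0561), ONT.10335 (-0.2455 to 0.0821), ONT.10336 (-0.2745 to 0.1936) and ONT.10341 (-0.1546 to 0.2007). ONT.10336 was at 0.01 in limma-voom, and ONT.10341 at -0.0195 with library totals, -0.021 and -0.0211 in limma on log2(CPM + 1) and log2(CPM + 0.5), and -0.0661 after thinning. Few reads limit loci under 8 CPM.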
